A study of Mus musculus with 6 samples.

Results

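The 10 genes described here are known as markers of the thalamus and habenula and were taken by symbol from a table of 43346 deposited rows. They are Gbx2, Tcf7l2, Lef1, Rora, Gpr151, Ramp3, Prkcd, Rgs16, Plekhg1 and Tnnt1, and each has 1 row. Brain RNA was sequenced from 3 Kdm6a deficient mice and 3 wild-type littermates, all of them adult C57BL/6 males. The deficient mice were bred from females with a loxP-flanked Kdm6a and males with Thy1-Cre, a transgene that drives Cre recombinase mainly in neurons, so other brain cells can keep the gene. Kdm6a encodes a demethylase of lysine 27 of histone H3. Its level was 22.3, 25.2 and 25.2 CPM (read counts set to a common library total, TMM-scaled) in deficient mice 1, 2 and 3, against 34.5, 35.0 and 34.3 CPM in wild-type mice 1, 2 and 3. Kdm6a was thus at 70.1% of the wild-type level (edgeR adjusted p = 0.00780). The libraries held 20170254 to 24531408 counts for deficient mice and 18542590 to 23871215 for wild-type mice, with 3.03% to 3.46% of counts from mitochondrial genes.

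The thalamus relays sensory and motor signals to the cerebral cortex through glutamatergic neurons, and the habenula next to it sends axons to monoamine nuclei of the midbrain. Tcf7l2 and Lef1 are HMG-box transcription factors that bind the same short DNA words and act with beta-catenin in Wnt signalling. Gbx2 is a homeobox factor required for thalamic neurons to form. Several of these genes are also used outside the thalamus, such as Rora in Purkinje cells of the cerebellum and in cortex, Prkcd in the amygdala and Rgs16 in the suprachiasmatic nucleus. The RNA came from tissue labelled brain, so a thalamic origin of these transcripts cannot be shown, and fewer cells of a type and less RNA per cell cannot be told apart.

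The words bound by Tcf7l2 and Lef1 were looked up in RefSeq promoters (GRCm38.p6), each running from 250 bases before to 50 bases after a start site. The table holds 14 such promoters for 9 of the 10 genes, all but Gpr151. The words searched on either strand were CTTTGAA in one spelling, CTTTGAT in another, and also the spellings CTTTGTA and, last, CTTTGTT. At least 1 of them occurred in 3 of the 14 promoters, against 16.9% of all 32851. The stretches of 60 bases around these words are shown because 2 of the 3 lie in Tcf7l2 and Lef1 themselves. Each is read 5′ to 3′ on the gene's strand with the word in capitals.
Tcf7l2, chr19:55895261-55895320, plus strand: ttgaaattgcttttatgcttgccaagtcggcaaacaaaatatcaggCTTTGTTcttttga
Lef1, chr3:131156121-131156180, plus strand: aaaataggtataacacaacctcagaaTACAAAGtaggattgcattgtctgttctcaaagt
Prkcd, chr14:30610501-30610560, minus strand: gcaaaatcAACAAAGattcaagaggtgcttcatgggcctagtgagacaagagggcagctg
All 3 stretches are intronic in GENCODE release M21 and precede start sites inside the gene, 153501 bases into Tcf7l2, 45823 into Lef1 and 15900 into Prkcd. The word begins at position -14, -147 and -242 from those start sites, in the same order. The word TAGGTCA, bound by Rora and its relatives, was in 0 of the 14 promoters, against 2.61% of all. These are matches of letters, with no measure of binding.

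All 10 genes had enough counts to be tested, and none passed a false discovery rate (FDR) of 5% between deficient and wild-type brains. Adjusted p-values of edgeR's quasi-likelihood test ran from 0.704 to 0.996. Of all 15030 genes tested 7 passed (0.0466%), 2 higher in deficient mice (0.0133%) and 5 lower (0.0333%). With the unadjusted edgeR test, Tnnt1, Plekhg1 and Ramp3 had a p under 0.05, as did 881 of all genes tested (5.86%). Tnnt1 and Plekhg1 were lower in deficient mice, against 3.3% of all genes, and Ramp3 was higher, against 2.56%. DESeq2 likewise called 0 of the 10 genes and gave the same 3 an unadjusted p under 0.05. Log2 fold changes, deficient over wild type, were negative for 7 genes and positive for 3, while 49.2% of all genes tested were negative. The median was -0.079, against 0.0018 over all genes tested. The 95% interval of every one of the 10 fold changes lay within 2-fold either way, and that of 7 within 1.5-fold. The exceptions at 1.5-fold were Gbx2, Gpr151 and Tnnt1. Gbx2 and Gpr151 had the fewest counts of the 10 genes, and Tnnt1 had the log2 fold change largest in size, -0.36. These intervals hold for 1 gene at a time.

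**Figure D1:**
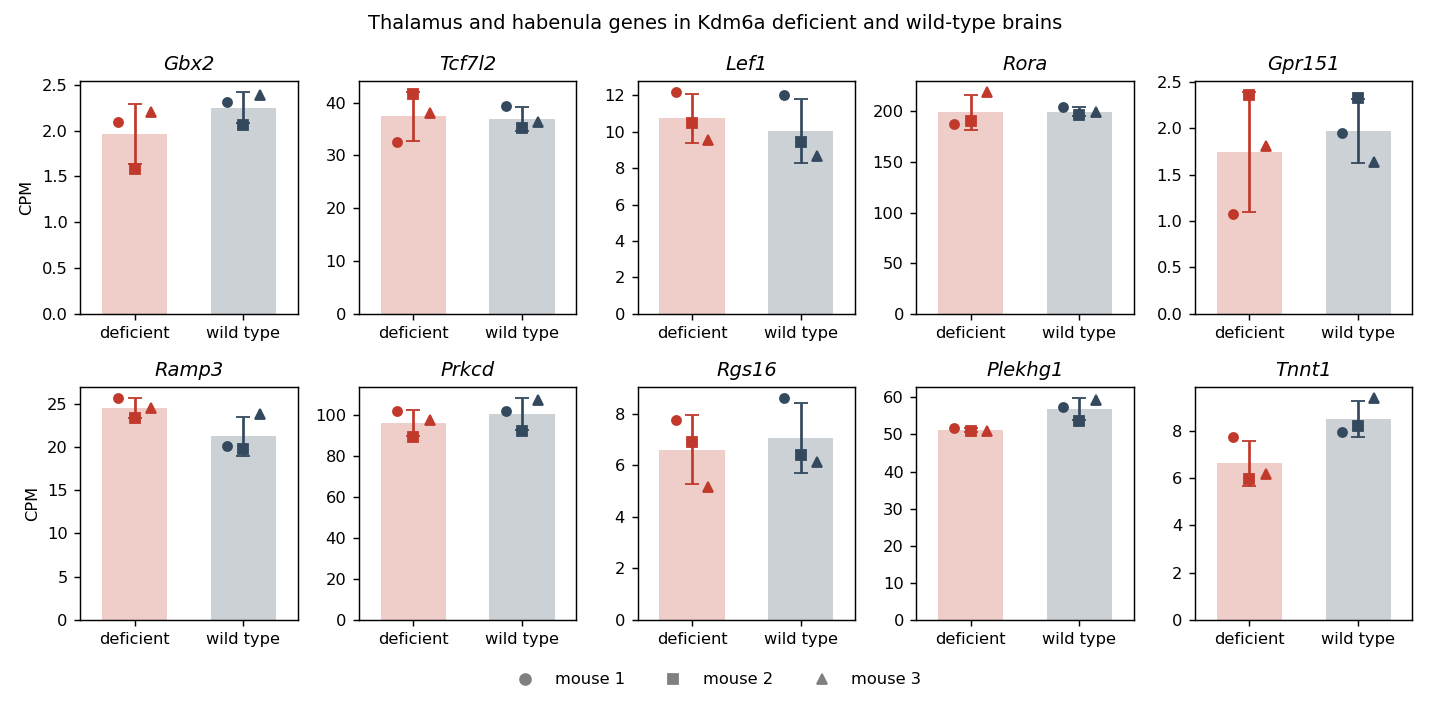
CPM of each of the 10 genes in each mouse (points), with the mean (bar) and SD (error bar) of 3 deficient mice on the left and 3 wild-type mice on the right of each panel. The genotypes do not overlap for Plekhg1 and Tnnt1 and overlap for the other 8, and over all genes tested they do not overlap for 11.2%.

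Among the 4 transcription factors, the level in deficient mice was 86.4% of the wild-type level for Gbx2, 99.6% for Rora, 101% for Tcf7l2 and 107% for Lef1, and the groups overlap for each. Rora, an orphan nuclear receptor (chromosome 9, 68653786 to 69388246, GRCm38), stood at 187, 191 and 219 CPM in deficient mice 1, 2 and 3, against 204, 196 and 199 CPM in wild-type mice 1, 2 and 3. Deficient mouse 3 was the highest of the 6 and deficient mouse 1 the lowest. It averaged 199.2 ± 17.4 CPM across the deficient mice, against 199.9 ± 4.01 CPM across the wild types (SD, n = 3 each). Its log2 fold change was -0.01 (SE 0.06, edgeR adjusted p = 0.996), with an interval of -0.13 to 0.12. It was 0.01 with offsets for length and GC content of transcripts or without wild-type mouse 1, 0.03 without deficient mouse 1 and 0.02 without deficient mouse 2. The interval is the narrowest among the transcription factors, at 91.4% to 109% of the wild-type level.

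Tcf7l2 (chromosome 19, 55741820 to 55933654) stood at 32.5, 41.7 and 38.0 CPM in deficient mice 1, 2 and 3, against 39.4, 35.1 and 36.3 CPM in wild-type mice 1, 2 and 3. Both the highest and the lowest value came from deficient mice, so the groups overlap fully. For Tcf7l2 the log2 fold change was 0.02 (SE 0.08, edgeR adjusted p = 0.990), with an interval of -0.16 to 0.20. It was -0.07 without deficient mouse 2 and -0.02 without wild-type mouse 2. Lef1 (chromosome 3, 131110471 to 131224356) stood at 12.2, 10.5 and 9.55 CPM in deficient mice 1, 2 and 3. Its wild-type values were 12.0, 9.42 and 8.66 CPM in mice 1, 2 and 3. Mouse 1 was the highest of its group in both genotypes. The Lef1 log2 fold change was 0.10 (SE 0.13, edgeR adjusted p = 0.953), with an interval of -0.18 to 0.38. It was -0.004 without deficient mouse 1 and -0.005 without wild-type mouse 3.

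Gbx2 (chromosome 1, 89927956 to 89931179) was counted 47, 39 and 45 times in deficient mice 1, 2 and 3, against 52, 38 and 57 times in wild-type mice 1, 2 and 3. These were 2.10, 1.58 and 2.20 CPM in the deficient, against 2.31, 2.06 and 2.38 CPM in the wild-type mice. Deficient mouse 2 was the lowest, and the other two deficient mice lay within the range of the wild types. For Gbx2 the log2 fold change was -0.21 (SE 0.19, edgeR adjusted p = 0.933), with an interval from 64.8% to 115% of the wild-type level. At 38 to 57 counts, counting alone gives a relative error of 13.2% to 16.2% per library. Gbx2 shares 946 exonic bases with D130058E05Rik on the opposite strand, and no source used here says how the authors' counting treated strand. D130058E05Rik itself had 11, 19 and 8 counts in deficient and 10, 13 and 13 counts in wild-type mice 1, 2 and 3. Reads of either gene could have been counted for the other. Lef1 (Gm43352, 1208 shared bases), Rgs16 (Gm28513, 236), Ramp3 (Gm11978, 101) and Rora (Gm15511, 82) overlap genes on the opposite strand too, whose reads could have been counted for them. Of these partners, Gm28513 and Gm15511 had 0 counts in all mice, and Gm43352 has no row. Gm11978 had 1, 8 and 1 counts in deficient and 1, 3 and 4 counts in wild-type mice 1, 2 and 3.

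None of the wider family of these factors passed 5% FDR in edgeR, and none had an unadjusted p under 0.05. Of 12 TCF/LEF relatives, Wnt partners and Wnt targets 11 were tested, with 5 positive and 6 negative log2 fold changes and a median of -0.005. Znrf3, a ubiquitin ligase that removes Wnt receptors, had the smallest p, with 14.9 ± 1.22 CPM across the deficient mice, against 16.8 ± 0.668 CPM across the wild types (SD, n = 3 each) and log2 fold change -0.17 (SE 0.08), at an adjusted edgeR p of 0.858. Sp5, a zinc finger factor induced by Wnt signalling, stood at 0.62 (SE 0.37), and Nkd1, an inhibitor of the pathway, at -0.11 (SE 0.08). Of the 5 relatives of Gbx2 and Rora listed, 2 had positive and 3 negative log2 fold changes (median -0.097). They include Gbx1 at -0.29 (SE 0.20), Rorb at -0.10 (SE 0.07) and the clock repressor gene Nr1d1 at 0.09 (SE 0.06).

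Ramp3 had the largest positive log2 fold change of the 10 genes and Gpr151 the widest interval. Ramp3 encodes a single-pass membrane protein that pairs with the calcitonin receptor-like receptor and sets which peptide it binds (chromosome 11, 6658521 to 6677475). It stood at 25.6, 23.4 and 24.5 CPM in deficient mice 1, 2 and 3, against 20.1, 19.8 and 23.8 CPM in wild-type mice 1, 2 and 3. Wild-type mouse 3 lay above deficient mouse 2, and both other wild-type mice lay below all deficient ones. The mean was 24.5 ± 1.11 CPM across the deficient mice, against 21.2 ± 2.23 CPM across the wild types (SD, n = 3 each). Its log2 fold change was 0.20 (SE 0.08, edgeR adjusted p = 0.790), with an interval of 0.03 to 0.38. With an unadjusted edgeR p of 0.0238, Ramp3 ranked 450th of the 15030 genes. Leaving out deficient mouse 1 put that p at 0.0864, and leaving out wild-type mouse 1 or 2 put it at 0.0956 or 0.0998. At its lowest it was 0.00206, without wild-type mouse 3 (edgeR adjusted p = 0.262).

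The partners of Ramp3 did not pass 5% FDR in edgeR, and none had an unadjusted p under 0.05. Of 8 genes for calcitonin-type receptors, their peptides and other RAMPs 6 were tested, with 5 positive log2 fold changes and a median of 0.157. Calcr, the calcitonin receptor, stood at 0.35 (SE 0.19), Calcrl, the calcitonin receptor-like receptor, at 0.14 (SE 0.11), and Ramp2 at 0.12 (SE 0.08). In the same order, their edgeR adjusted p was 0.877, 0.909 and 0.891. Markers of endothelium and pericytes, cells where RAMPs also act, had positive log2 fold changes for 7 of 10 (median 0.075), and their summed level was 394 to 408 CPM over the deficient mice, against 349 to 408 CPM over the wild types. Their part in the Ramp3 value was not tested.

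Gpr151, an orphan receptor found on the axons of habenular neurons (chromosome 18, 42577881 to 42579652), varied most between mice. It was counted 24, 58 and 37 times in deficient mice 1, 2 and 3, against 44, 43 and 39 times in wild-type mice 1, 2 and 3. In CPM these were 1.07, 2.35 and 1.81 in the deficient, against 1.95, 2.33 and 1.63 in the wild-type mice. Both the lowest and the highest value came from deficient mice. The log2 fold change was -0.15 (SE 0.26, edgeR adjusted p = 0.967), with an interval from 60.7% to 133% of the wild-type level, and it was 0.10 without deficient mouse 1. Of 5 genes for galanin and its receptors, the nearest named relatives of Gpr151 among receptors, 3 were tested. Galr2 stood at 0.51 (SE 0.30), Galr1 at 0.15 (SE 0.26) and Gal at 0.06 (SE 0.25), and none passed 5% FDR or had an unadjusted edgeR p under 0.05.

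Of the 3 signalling genes, Plekhg1 separated the genotypes and Prkcd and Rgs16 did not. Plekhg1 encodes a guanine nucleotide exchange factor with a pleckstrin homology domain (chromosome 10, 3740364 to 3967303). It stood at 51.8, 50.9 and 51.0 CPM in deficient mice 1, 2 and 3, against 57.5, 53.7 and 59.4 CPM in wild-type mice 1, 2 and 3. Every deficient mouse lay below every wild-type mouse, and the deficient mice lay within 1 CPM of each other. Over all genes tested the groups did not overlap for 11.2%, with the deficient mice lower for 5.49% and higher for 5.7%. The log2 fold change of Plekhg1 was -0.15 (SE 0.05, edgeR adjusted p = 0.704), with an interval of -0.27 to -0.04. Its unadjusted edgeR p was 0.0111, which ranked 235th, and it was 0.0505 without wild-type mouse 3. At its lowest it was 0.0045, without wild-type mouse 2 (edgeR adjusted p = 0.652). Of 5 other PLEKHG genes 4 were tested, with a median log2 fold change of 0.013. Plekhg5 stood at -0.11 (SE 0.06), Plekhg2 at 0.18 (SE 0.12) and Plekhg3 at -0.05 (SE 0.07), and none passed 5% FDR or had an unadjusted edgeR p under 0.05.

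Prkcd, protein kinase C delta (chromosome 14, 30595354 to 30626210), stood at 102, 89.0 and 97.1 CPM in deficient mice 1, 2 and 3, against 102, 92.0 and 107 CPM in wild-type mice 1, 2 and 3. Mouse 2 was the lowest of its group in both genotypes. For Prkcd the log2 fold change was -0.07 (SE 0.06, edgeR adjusted p = 0.936), with an interval of 86.9% to 105% of the wild-type level. All 8 other kinases of the family were tested, and 6 had negative log2 fold changes (median -0.077). Prkca stood at -0.11 (SE 0.05) and Prkcq at -0.15 (SE 0.08). None of the 8 passed 5% FDR in edgeR, and 1 had an unadjusted p under 0.05.

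Rgs16, which speeds GTP hydrolysis by G protein alpha subunits (chromosome 1, 153740349 to 153745468), stood at 7.76, 6.90 and 5.14 CPM in deficient mice 1, 2 and 3. Its wild-type values were 8.61, 6.39 and 6.15 CPM in mice 1, 2 and 3. The groups overlap, and mouse 1 was the highest of both. The log2 fold change was -0.09 (SE 0.17, edgeR adjusted p = 0.970), and it was 0.05 without deficient mouse 3 and 0.08 without wild-type mouse 1. Of 9 other R4 class RGS genes 5 were tested, with a median of -0.006. Rgs3 stood at -0.10 (SE 0.08), Rgs2 at -0.07 (SE 0.06) and Rgs5, a pericyte marker, at 0.13 (SE 0.13), and none passed 5% FDR or had an unadjusted edgeR p under 0.05.

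Tnnt1 had the largest log2 fold change of the 10 genes in size. It encodes the troponin T of slow skeletal muscle, a thin-filament protein whose transcript also marks thalamic neurons (chromosome 7, 4504570 to 4516382). It was counted 173, 147 and 126 times in deficient mice 1, 2 and 3, against 179, 151 and 224 times in wild-type mice 1, 2 and 3. On scaled totals these were 7.72, 5.97 and 6.17 CPM in the deficient, against 7.94, 8.18 and 9.37 CPM in the wild-type mice. The groups do not overlap, with deficient mouse 1 just below wild-type mouse 1. The mean was 6.62 ± 0.958 CPM across the deficient mice, against 8.50 ± 0.765 CPM across the wild types (SD, n = 3 each), or 77.7% of the wild-type level with an interval of 64.7% to 93.5%. The log2 fold change was -0.36 (SE 0.12, edgeR adjusted p = 0.704). The unadjusted edgeR p of 0.0109 ranked 231st. That p was 0.0543 without deficient mouse 2 and 0.0602 without wild-type mouse 3. At its lowest it was 0.00185, without deficient mouse 1 (edgeR adjusted p = 0.341).

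Few other troponin genes were measured. None passed 5% FDR in edgeR, and Tnnt2 alone had an unadjusted p under 0.05. Of 7 listed 4 were tested, with 3 positive log2 fold changes (median 0.244). Tnnt2, the cardiac troponin T, stood at 3.00 ± 0.206 CPM across the deficient mice, against 3.80 ± 0.457 CPM across the wild types (SD, n = 3 each), which put its log2 fold change at -0.34 (SE 0.15) with an adjusted edgeR p of 0.850. Tnni3 stood at 0.39 (SE 0.35) and Tnni1 at 0.34 (SE 0.34).

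**Figure D2:**
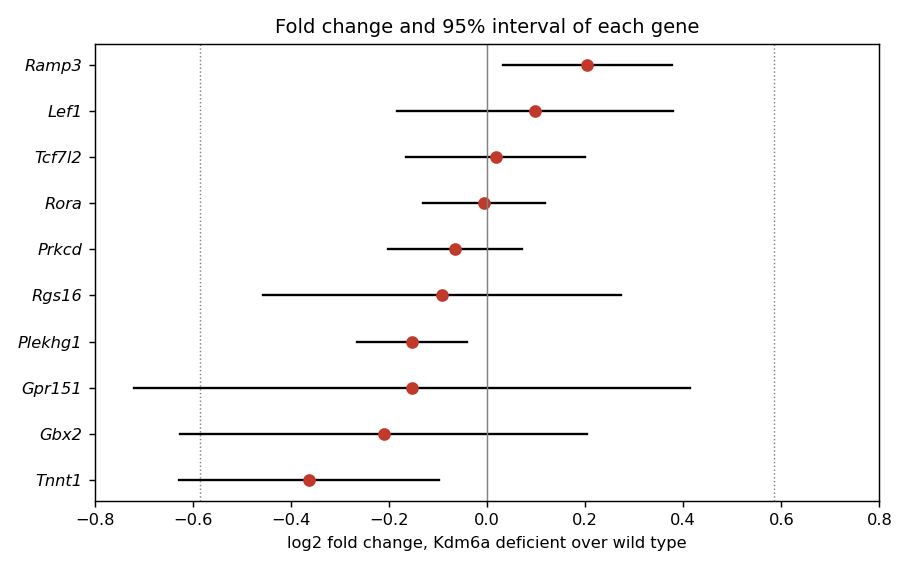
Log2 fold change (point, deficient over wild type, edgeR) and 95% interval (line) of the 10 genes, with dotted lines at 1.5-fold either way. The intervals of Tnnt1, Plekhg1 and Ramp3 do not reach 0, although none of the 10 genes passed 5% FDR over all genes tested.

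For 8 of the 10 genes the authors' deposited table lists an adjusted p of 0.9997, and the adjusted p of Gbx2 and Gpr151 is NA. The authors' deposited table has its smallest p among them for Tnnt1 (0.0280), followed by Plekhg1 (0.0310) and Ramp3 (0.0477). Log2 fold changes in the authors' deposited table run wild type over deficient and are 0.12 for Tnnt1, 0.11 for Plekhg1 and -0.12 for Ramp3. They are smaller in size than those of the DESeq2 fit run here on the same counts. That fit gave -0.363 for Tnnt1, -0.154 for Plekhg1 and 0.205 for Ramp3, deficient over wild type. The authors' sizes are thus not on the scale of the other fold changes given here, and why was not tested.

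Levels differed more between the genes than between the mice. Per kilobase of merged exons, Prkcd (16.1 to 19.3 CPM per kb over the 6 mice), Ramp3 (14.3 to 18.6) and Rora (14.3 to 16.8) were the most abundant, and their ranges overlap. Plekhg1 followed at 5.83 to 6.80 CPM per kb, apart from its neighbours in the order. The ranges of Tcf7l2 (3.71 to 4.75 CPM per kb) and Tnnt1 (2.71 to 4.25) overlap, as do those of Tnnt1 and Rgs16 (2.20 to 3.68). Lef1 (0.985 to 1.39 CPM per kb), Gpr151 (0.604 to 1.33) and Gbx2 (0.727 to 1.10) were the least abundant and overlap each other. The mean of Prkcd per kb lay above that of 80.7% of the genes tested and that of Gbx2 above 20.2%.

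How the 10 genes varied together from mouse to mouse is given pair by pair. Over the 6 mice, 19 of the 45 pairs had a positive Pearson r of their log2 CPM, the median r was -0.055, and the values ran from -0.669 to 0.843. By the exact two-sided permutation test 1 pair had an unadjusted p under 0.05 for Pearson's r (smallest adjusted p = 0.625) and 2 pairs had one for Spearman's rho (smallest adjusted p = 0.375). With 6 mice the smallest exact permutation p for Pearson's r is 0.00139, so over 45 pairs no single pair could have passed 5% FDR on its own. The highest r was that of Gbx2 with Prkcd (r = 0.843, exact permutation p = 0.0153, Spearman's rho = 0.943, exact permutation p = 0.0167), which was 0.576 without the 2 mice farthest from the median of Gbx2. Plekhg1 with Tnnt1 had r = 0.836 (exact permutation p = 0.0556, rho = 0.943, exact permutation p = 0.0167), which was 0.876 without the 2 mice farthest from the median of Plekhg1. Measured from the mean of each genotype, that r was 0.480. Lef1 with Rgs16 had r = 0.820 (exact permutation p = 0.0514, rho = 0.771, exact permutation p = 0.103), and r was 0.346 without the 2 mice farthest from the median of Lef1. Taken from the genotype means in the same way, r was 0.936 for Lef1 with Rgs16 and 0.832 for Gbx2 with Prkcd.

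Averaged over the 10 genes, log2 CPM minus its wild-type average stood at -0.071, -0.073 and -0.088 for deficient mice 1, 2 and 3. For wild-type mice 1, 2 and 3 it stood at 0.061, -0.052 and -0.009. By this mean all deficient mice lay below all wild-type mice. By the median over the 10 genes they did not, with -0.094, -0.04 and -0.05 for deficient mice 1, 2 and 3, against values of 0.027, -0.078 and 0.029 among wild-type mice 1, 2 and 3. Both are descriptions only. The genes whose log2 CPM followed this mean most closely over the 6 mice were Csnk2a1_2 (r = 0.997), the potassium channel gene Kcnn3 (0.984), Ints9 (0.983), Pom121 (0.980) and Zbtb7a (0.976). Of 13842 genes compared, 118 had an r of at least 0.9. The members themselves had an r with their mean between -0.59 for Ramp3 and 0.84 for Plekhg1. Ramp3 thus ran against the mean of the 10 genes and Plekhg1 closest to it, though each member is itself part of that mean.

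No other listed marker of the thalamus passed 5% FDR in edgeR. Slc17a6, the vesicular glutamate transporter of thalamic and other subcortical neurons, stood at 143 ± 8.55 CPM across the deficient mice, against 142 ± 4.95 CPM across the wild types (SD, n = 3 each), a log2 fold change of 0.00 (SE 0.05). Of 18 listed genes, all tested, 6 had positive and 12 negative log2 fold changes, against 49.2% negative over all genes tested. The median was -0.030. An unadjusted edgeR p under 0.05 was found for 4, against 5.86% of all genes. They were Amotl1, a tight-junction scaffold gene, at -0.14 (SE 0.05), the transcription factor gene Zfhx3 at -0.25 (SE 0.09), Synpo2, an actin-binding protein gene, at -0.15 (SE 0.06), and Calb2, calretinin, at -0.13 (SE 0.06). Their edgeR adjusted p ran from 0.704 to 0.850. In Amotl1 the deficient mice averaged 81.1 ± 2.76 CPM and the wild-type mice 89.4 ± 2.95 CPM (SD, n = 3 each), with no overlap, as for 11.2% of all genes tested.

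Other habenula markers went in both directions. Of 18 listed 17 were tested, all but Kiss1, which had 0 counts in all 6 libraries. None of the 17 passed 5% FDR, 11 had positive and 6 negative log2 fold changes, and the median was 0.062. An unadjusted edgeR p under 0.05 was found for 4, 2 higher and 2 lower in deficient mice, against 5.86% of all genes tested. Chrnb3, a nicotinic receptor subunit, had 2.96 ± 0.105 CPM across the deficient mice, against 4.12 ± 0.784 CPM across the wild types (SD, n = 3 each), with no overlap and log2 fold change -0.48 (SE 0.16), at an adjusted edgeR p of 0.696. Groups without overlap were found for 11.2% of all genes tested. Chrnb3 had 58 to 120 counts per library. Its wild-type values were 3.77, 3.57 and 5.02 CPM in mice 1, 2 and 3. Wif1, a secreted Wnt inhibitor, stood at 0.47 (SE 0.19, edgeR adjusted p = 0.790), Etv1, an ETS factor, at 0.14 (SE 0.05, edgeR adjusted p = 0.778), and Tac2, the neurokinin B precursor, at -0.23 (SE 0.10, edgeR adjusted p = 0.815). Pou4f1, a defining transcription factor of habenular neurons, was present at 3.14 ± 1.06 CPM across the deficient mice, against 2.85 ± 0.994 CPM across the wild types (SD, n = 3 each). Markers of the thalamic reticular nucleus and zona incerta had 6 of 10 positive log2 fold changes (median 0.034), with Six3 at -0.17 (SE 0.10), Slc32a1 at 0.07 (SE 0.05) and Meis2 at 0.08 (SE 0.07).

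**Figure D3:**
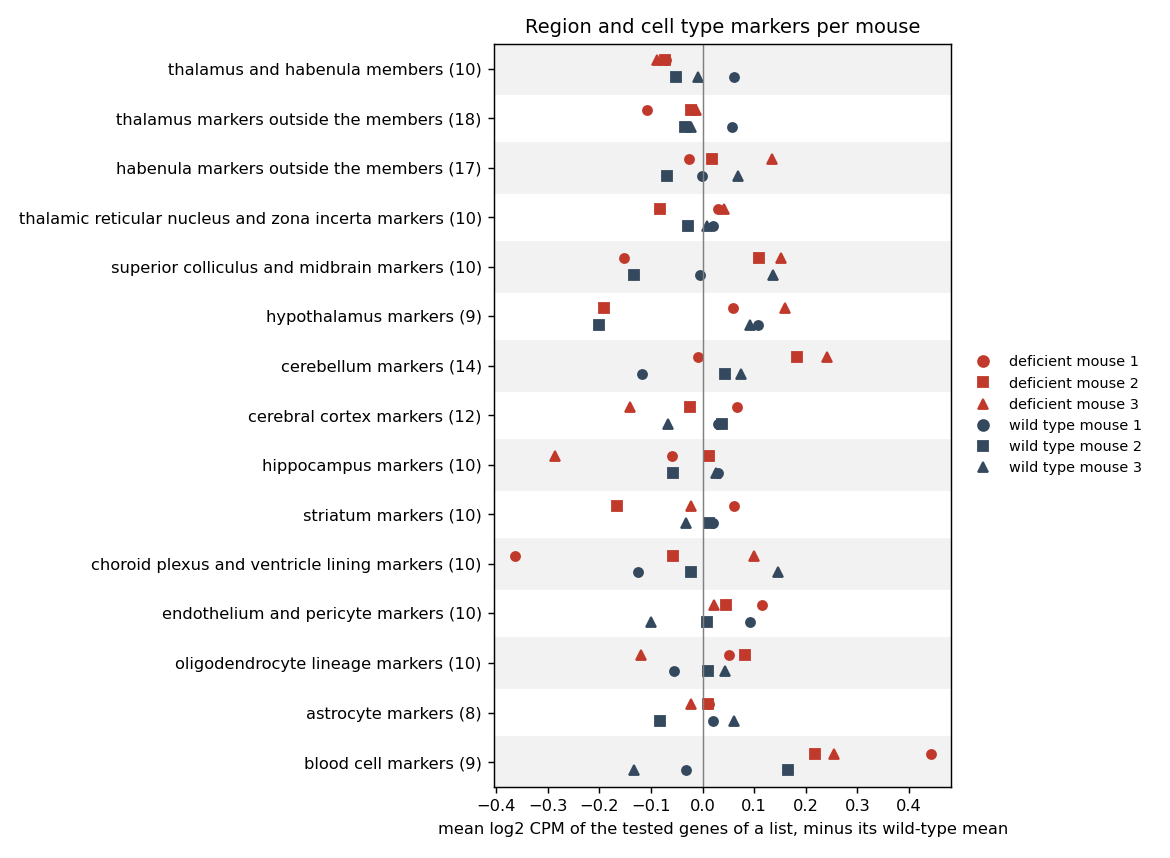
Mean log2 CPM of the 10 genes and of the tested genes of each marker list with at least 5 of them, minus its wild-type mean, with 1 point per mouse, deficient mice above wild-type mice in each row, and the number of genes in brackets. The 10 genes lie at -0.071 to -0.088 in deficient mice, and blood cell markers lie between 0.218 and 0.442 in deficient mice, all above the wild-type mice.

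No gene of the lists for other regions and cells passed 5% FDR, so 0 of 197 different list genes tested did. Of the 197, 24 had an unadjusted edgeR p under 0.05 (12.2%), against 5.86% of all genes tested. The lists were chosen with earlier results of these data known, so these shares are descriptions only. DESeq2 also called 0 of the 197 genes. Over all genes tested, 49.2% had a negative log2 fold change. Cerebellum markers, which include genes of granule cells as well as of Purkinje cells, had 13 of 14 positive log2 fold changes (median 0.170), 5 of them with an unadjusted edgeR p under 0.05, and their summed level was 1504 to 1811 CPM over the deficient mice, against 1364 to 1563 CPM over the wild types. Zic1, a granule cell factor, stood at 0.25 (SE 0.06), Grm4 at 0.22 (SE 0.06) and Cbln1 at 0.19 (SE 0.07). Rora, a Purkinje cell gene, was at 99.6% of the wild-type level, and the part of cerebellar tissue in that value was not tested. Choroid plexus and ventricle lining markers had 1 of 10 positive (median -0.157) and were summed at 1249 to 1834 CPM over the deficient mice, against 1445 to 2034 CPM over the wild types, with deficient mouse 1 lowest in their mean log2 CPM, at -0.363. Midbrain markers (6 of 10 positive, median 0.042) were lowest in deficient mouse 1 as well, at -0.152, close to the -0.132 of wild-type mouse 2. Gpr151 also had its lowest value in deficient mouse 1. The habenula markers outside the 10 genes did not, with -0.027 in deficient mouse 1 and their lowest value, -0.068, in wild-type mouse 2. The part of any of these tissues in the Gpr151 value was not tested.

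The remaining lists gave medians of -0.023 for hypothalamus (4 of 9 positive), -0.026 for cerebral cortex (4 of 12), -0.012 for hippocampus (3 of 10) and -0.069 for striatum (3 of 10). For cell types they were -0.002 for the oligodendrocyte lineage (5 of 10 positive), -0.003 for astrocytes (3 of 8) and 0.306 for blood cells (8 of 9), the last summed at 76.1 to 96.7 CPM over the deficient mice, against 62.9 to 78.0 CPM over the wild types. Of 8 markers of the pineal gland, a gland that lies behind the habenula, only Sag had enough counts to be tested, at a log2 fold change of 0.10 (SE 0.23). Within these lists the smallest p belonged to Sim1 for hypothalamus, Rasgrf2 for cortex, Dsp for hippocampus, Drd2 for striatum, Cnp for oligodendrocytes, Slc1a3 for astrocytes and Hba-a1 for blood. Their log2 fold changes were 0.48 (SE 0.28) for Sim1, -0.14 (SE 0.05) for Rasgrf2, -0.75 (SE 0.30) for Dsp and -0.16 (SE 0.08) for Drd2. Those of Cnp, Slc1a3 and Hba-a1 were -0.09 (SE 0.05), 0.05 (SE 0.04) and 0.47 (SE 0.10). For midbrain, choroid plexus and endothelium they were Slc6a3 at -0.16 (SE 0.07), Foxj1 at -0.26 (SE 0.10) and Pdgfrb at 0.16 (SE 0.07).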

How the data were processed

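RNA from the brains of 6 mice was sequenced after Illumina TruSeq RNA preparation, as the labels' protocols state. GRCm38 and DESeq2 appear in the submitters' processing notes. An aligner, counting tool, annotation or strand setting is not given in the sources used. The authors deposited raw counts per gene symbol, 1 column per mouse, totalling 18542590 to 24531408. Further columns hold, per the file headers, the authors' DESeq2 mean normalized signal, log2 fold change with its SE, test score, and p-value with its adjusted p-value.

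Counts of 15030 genes passing the default expression filter were tested with edgeR 4.0.16 (R 4.3.3), using TMM scaling and a robust quasi-likelihood fit of genotype, two-sided, adjusted by Benjamini and Hochberg over all of them at 5%. Fold changes are deficient over wild type. SE is the fold change over the square root of F, and 95% intervals use the t distribution of that fit. Log2 CPM used a prior count of 2. The code was tested on simulated data. Rows with only digits for a symbol (27, 0.35% of counts) were kept in totals and not named. Every pair of libraries differed by more than sampling noise. Each library is 1 mouse, per the labels, and no batch is named.

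Exon lengths, positions and overlaps came from GENCODE M21. Near-identical transcripts (95% identity or more over 200 bases, blastn 2.17.0) were found only among overlapping antisense genes. The members and lists were chosen with earlier results of these data known. Besides the 10 genes, up to 3 genes with the smallest p of each list were named (1 is not reported here), with Kdm6a, the 5 genes most like the members' mean, and marker genes singled out after their values were seen (Slc17a6, Calb2, Tac2, Pou4f1, Kiss1). Of 23 lists with 220 different genes, 1 gene (Drd1) was found under an older symbol, and 7 genes are in 2 lists.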

Additional observations from a re-analysis of the deposited data

How the results depend on the processing

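None of the 10 genes passed 5% FDR under any of the 13 alternative fits (each mouse left out, limma-voom, DESeq2, the replicate block, offsets for length and GC content of transcripts, RLE scaling, no filter on low counts, or one at 1 CPM on average) or at 10% FDR. The smallest adjusted p was 0.262, for Ramp3 without wild-type mouse 3. Of 130 such fold changes 119 kept their direction. With all mice only Rora changed sign, to 0.01 with the length and GC correction, which covered 95.7% of the genes tested. Leaving out 1 mouse gave -0.30 to -0.07 for Gbx2, -0.072 to 0.107 for Tcf7l2, -0.005 to 0.252 for Lef1, -0.079 to 0.034 for Rora and -0.45 to 0.10 for Gpr151. It gave 0.16 to 0.30 for Ramp3, -0.125 to -0.015 for Prkcd, -0.223 to 0.081 for Rgs16, -0.19 to -0.12 for Plekhg1 and -0.49 to -0.28 for Tnnt1. The cause of these sign changes was not tested. Members with an unadjusted p under 0.05 numbered 1 to 3 without 1 mouse. The p of Ramp3 was above 0.05 in 3 of these 6 fits, that of Tnnt1 in 2 and that of Plekhg1 in 1, as given beside each gene. The median log2 fold change of the 10 genes was -0.078 to -0.023.

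The count of all genes past 5% FDR was 25 with no filter, 20 with DESeq2, 15 with the replicate block and 3 to 17 without 1 mouse, against 7. Deficient mice 1 and 3, left out singly, gave 12 and 15, and wild-type mice 2 and 3 gave 3 and 17. Genes of the other lists past it were 0, but 1 with no filter (Hba-a1), 1 with the replicate block (Car8), and 0 to 2 without 1 mouse (Gabra6 and Zic1 without deficient mouse 1). The cause was not tested. Same-numbered mice had correlations of -0.000634, 0.081 and 0.048 between their deviations from the genotype means, and not every mouse correlated best with its own number, so the number was not taken as a pairing. A prior count of 0.5 moved no difference of mean log2 CPM by more than the spread between mice. Gbx2 and Gpr151 had the fewest counts of the 10 genes, 24 to 58 per library.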
